A study of Mus musculus with 8 samples.

Results

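The miR-200 family was followed in small RNA libraries of flow-sorted Kupffer cells, which are macrophages that live in the liver. Members were taken by name, as every entry of the deposited table whose name is, or extends with an arm or suffix, mmu-miR-200a, mmu-miR-200b, mmu-miR-200c, mmu-miR-141 or mmu-miR-429. There were 5 such entries among 1234 in the table and among 565 with a mouse name, 1 for each family member, and all 5 were 3p arms. No 5p arm was among the entries selected by these names, so 5p arms were not analysed here. The study compared male Trem2-/- (knockout) mice, which lack a lipid-sensing receptor of macrophages, with littermate wild-type mice. Mice of both groups were 8 weeks old when high-fat feeding began, and it lasted 8 weeks. There were 4 wild-type libraries (numbered 35, 37, 80 and 82 in the titles) and 4 knockout libraries (40, 46, 88 and 90), and no group on a control diet was analysed here. The sources used here name neither the construction of the knockout allele nor the antibodies of the sort, and the labels give only a number per library, without saying that each is a separate mouse. The p-values below therefore measure the spread between libraries, which may be partly technical.

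The miR-200 family consists of short RNAs made from a pair of gene clusters that are active in epithelial cells. The best known targets of the family are the messenger RNAs of ZEB1 and ZEB2, transcription factors that repress E-cadherin and drive the change from epithelial to mesenchymal state, and ZEB factors in turn repress the miR-200 clusters. In liver the family is known mainly from the bile duct epithelium. Macrophages are not epithelial cells, and the cells that gave these reads were not identified.

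The mature sequences are shown because the family divides in opposite ways by gene cluster and by seed, the bases that pair with targets. They come from RefSeq (GRCm38.p6) and are written 5′ to 3′ with the seed, bases 2 to 8, in capitals.
miR-200b-3p: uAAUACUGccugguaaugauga
miR-200c-3p: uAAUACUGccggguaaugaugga
miR-429-3p: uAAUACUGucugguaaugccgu
miR-200a-3p: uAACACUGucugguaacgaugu
miR-141-3p: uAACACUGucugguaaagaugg
The seed AAUACUG is common to miR-200b, miR-200c and miR-429, and the seed AACACUG to miR-200a and miR-141. The seeds differ at 1 base, C4U from miR-200a to miR-200b, counted from 1 at the 5′ end. The deposited sequences of miR-200a, miR-200b, miR-200c and miR-429 were identical to RefSeq. The deposited miR-141 entry, miR-141-3p_R-1, was 21 bases long, 1 base short of RefSeq at its 3′ end. Within the first 21 bases miR-200b and miR-200c differ only by U11G, and miR-141 and miR-200a only by A17C. Reads with an error at such a base cannot be assigned with certainty. Of the 40 raw values of the family, 2 were not whole numbers, 565.5 for miR-200c and 195.5 for miR-200b in knockout library 40. No family entry had the same sequence as another entry.

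The gene clusters cut across the seeds. Mir200b, Mir200a and Mir429 lie within 1846 bases on chromosome 4, minus strand (chr4:156053905-156055750, GRCm38). In GENCODE M21 this stretch is inside the span of Ttll10, a tubulin-modifying enzyme gene, without touching its exons, and Mir429 overlaps an exon of the noncoding gene Gm13648. Mir200c and Mir141 lie within 477 bases on chromosome 6, minus strand (chr6:124717914-124718390), inside the span of the noncoding gene Gm15884, and Mir141 overlaps an exon of the unclassified gene Gm29008. The sources used here do not name the genome build of the authors' mapping. The 2 hairpins of the chromosome 6 cluster are shown, with the 3p arm in capitals, since their arms did not move together below.
Mir200c: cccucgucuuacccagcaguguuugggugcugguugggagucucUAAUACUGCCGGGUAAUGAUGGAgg
Mir141: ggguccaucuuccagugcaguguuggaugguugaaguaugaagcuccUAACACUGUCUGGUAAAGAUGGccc

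Total expected counts ranged from 2129942 to 9443992 per library, and 3 counts corresponded to 0.318 to 1.41 CPM (counts scaled to a library total of 1000000). The libraries fall into a low and a high range of title numbers, 35 to 46 and 80 to 90, each with 2 wild-type and 2 knockout libraries. The labels do not say what the ranges are, so they are not a labelled batch, and an earlier look at these data had found that they separate the libraries. Totals were 2573618, 2830978, 3809016 and 2129942 counts in libraries 35, 37, 40 and 46. They were 9443992, 3873066, 2607271 and 6465609 counts in libraries 80, 82, 88 and 90. Apart from library 88, the high range was deeper. Within each range the deepest library, 40 or 80, had the highest family sum (359 and 726 CPM). The shallowest, 46 or 88, had the lowest (235 and 405 CPM). The part of depth in the family's values was not tested. The family made up 0.0244% of all counts in knockout library 46 (Wilson 95% interval 0.0224 to 0.0266) and 0.0625% in wild-type library 80 (0.0609 to 0.0641), the lowest and highest shares. These intervals cover counting error only. The 6 myeloid entries, miR-146a-5p, both arms of miR-142a, miR-223-3p, miR-342-3p and miR-511-3p, which mark macrophages and related cells, summed to between 90953 and 168160 CPM in the same libraries, against 235 to 726 CPM for the miR-200 family. Wild-type library 37 stood apart by its hepatocyte miRNAs, which summed to 139350 CPM there and to 9132 to 41043 CPM in the other 7 libraries.

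Levels below are CPM scaled with TMM factors, which correct library totals for differences in composition. Each read is 1 short RNA, so levels of entries that are 21 to 23 bases long need no length correction, though ligation can favour 1 sequence over another. The most abundant member was miR-200c-3p. In wild-type libraries 35, 37, 80 and 82 it stood at 159, 133, 483 and 270.5 CPM. In knockout libraries 40, 46, 88 and 90 it stood at 170.2, 81.7, 260.1 and 315 CPM. The genotypes overlapped, as they did for all 5 members, against 0.797% of tested entries without overlap (0.319% higher and 0.478% lower in knockout). All 4 libraries numbered 80 to 90 lay above all 4 numbered 35 to 46. The sister sequence miR-200b-3p was at 66.8, 67.6, 107 and 87.5 CPM in the wild-type libraries, in the same order. It was at 58.8, 51.5, 70.3 and 110.5 CPM in the knockout libraries. Again the genotypes overlapped and the number ranges did not, although knockout library 88 (70.3 CPM) was close to wild-type library 37 (67.6 CPM).

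For miR-200a-3p, which has the other seed, the wild-type libraries held 66.1, 89.1, 77.4 and 62.04 CPM. The knockout libraries held 74.0, 56.4, 43.7 and 61.7 CPM. Both the genotypes and the number ranges overlapped, with the lowest value in knockout library 88. The chromosome 6 member miR-141-3p_R-1 held 50.03, 37.4, 49.9 and 21.5 CPM in the wild-type libraries. It held 45.4, 39.7, 26.0 and 38.5 CPM in the knockout libraries, with overlap both ways. The rarest member, miR-429-3p, was between 4.82 CPM (knockout library 88) and 10.8 CPM (knockout library 40), and rested on 12 to 78 counts per library.

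**Figure D1:**
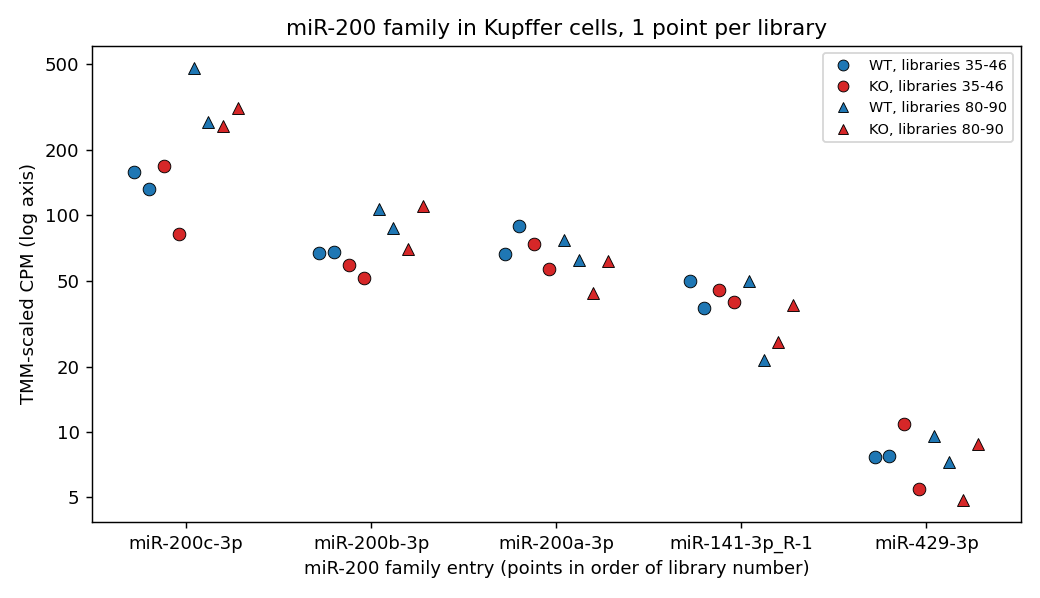
TMM-scaled CPM (log axis) of the 5 family entries, with 1 point per library in order of library number, coloured by genotype and shaped by number range. The triangles of miR-200c-3p, between 260.1 and 483 CPM, all lie above its circles, between 81.7 and 170.2 CPM, while the points of miR-200a-3p and miR-141-3p_R-1 overlap.

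By mean level the order was miR-200c-3p (234 ± 127 CPM, SD, n = 8), miR-200b-3p (77.5 ± 21.8), miR-200a-3p (66.3 ± 13.9), miR-141-3p_R-1 (38.6 ± 10.4) and miR-429-3p (7.75 ± 2.01). Within a library miR-200c exceeded miR-200b in 8 of 8 libraries, by 1.59 to 4.52 times. The next neighbours, miR-200b and miR-200a, did not differ beyond their spread, with miR-200b higher in 5 of 8 libraries and a mean difference of 11.2 ± 24.9 CPM (SD). In 8 of 8 libraries miR-200a exceeded miR-141, by 1.32 to 2.88 times. Also in 8 of 8 libraries miR-141 exceeded miR-429, by 2.97 to 7.33 times. Among the 627 entries that passed the filter on low counts, miR-200c ranked 159 by mean level and miR-429 ranked 478. All 5 members passed that filter and had counts in every library.

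The comparison the study was designed for asked whether loss of Trem2 altered the small RNAs of Kupffer cells. No miR-200 family member passed the test: 0 of 5 were called, and 0 of all 627 entries (0%) at an adjusted p of 0.05 in the edgeR quasi-likelihood test. Over all entries 2 had an unadjusted p under 0.05 in edgeR, 6 in DESeq2 and 3 in limma-trend, and DESeq2 and limma-trend also called 0. The number range was not a term in these fits and added to their spread, so these counts do not show that genotype had no effect. For miR-200c the wild-type mean was 261 ± 159 CPM and the knockout mean 207 ± 103 CPM (SD, n = 4 each). The log2 difference of miR-200c, knockout minus wild type, was -0.34 ± 0.53 (SE; 95% interval -1.53 to 0.86; edgeR adjusted p 0.997). For miR-200a the means were 73.7 ± 12.2 and 59.0 ± 12.6 CPM, a log2 difference of -0.32 ± 0.35 (SE; interval -1.10 to 0.46). For miR-200b they were 82.1 ± 18.9 and 72.8 ± 26.3 CPM, a log2 difference of -0.17 ± 0.38 (SE; interval -1.03 to 0.69). The log2 differences of miR-429 and miR-141 were -0.11 ± 0.61 and -0.09 ± 0.42 (SE).

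All 5 estimates were thus below 0, against 53.4% of all tested entries, and their median was -0.17 against -0.04 over all entries. The 5 values come from the same libraries and are not independent. The direction was not stable for 3 of the 5. Without wild-type library 80 the miR-200c log2 difference was 0.13, and miR-141 and miR-429 turned above 0 without knockout library 88 (0.06 each). The miR-141 difference was also 0.03 without wild-type library 35 and 0.03 without wild-type library 80. The authors' deposited table marks all 5 entries as down in knockout, as it does 588 of 1234 entries, a word that matched the sign of the difference in deposited means for each of those 588. With the number range as a block in the fit, the spread fell and the log2 difference of miR-200c was -0.30 ± 0.29 (SE, edgeR adjusted p 0.946). In that fit 0 entries (0%) were called, and 17 of 627 had an unadjusted p under 0.05 in edgeR. Hepatocyte miRNAs were lower in the knockout fit too, in 6 of 6 tested entries with a median log2 difference of -0.83 and 0 called. The hepatocyte list summed to 139350 CPM in wild-type library 37. It summed to 12215, 14205 and 9836.5 CPM in wild-type libraries 35, 80 and 82, inside the knockout range of 9132 to 41043 CPM. The part of hepatocyte miRNAs in the family's values was not tested.

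Fitted to either number range alone, edgeR again called 0 entries between genotypes, with 9 entries at an unadjusted p under 0.05 in libraries 35 to 46 and 32 in libraries 80 to 90. Mean miR-200c was 126 CPM in knockout and 146 CPM in wild type in libraries 35 to 46, and 288 and 377 CPM in libraries 80 to 90 (n = 2 each). Mean miR-200a was 65.2 and 77.6 CPM in the low range, and 52.7 and 69.7 CPM in the high range. The interaction of genotype and number range passed for 0 of 627 entries (0%) in edgeR, of which 30 had an unadjusted p under 0.05. For the 5 members the interaction's edgeR adjusted p was 0.996.

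**Figure D2:**
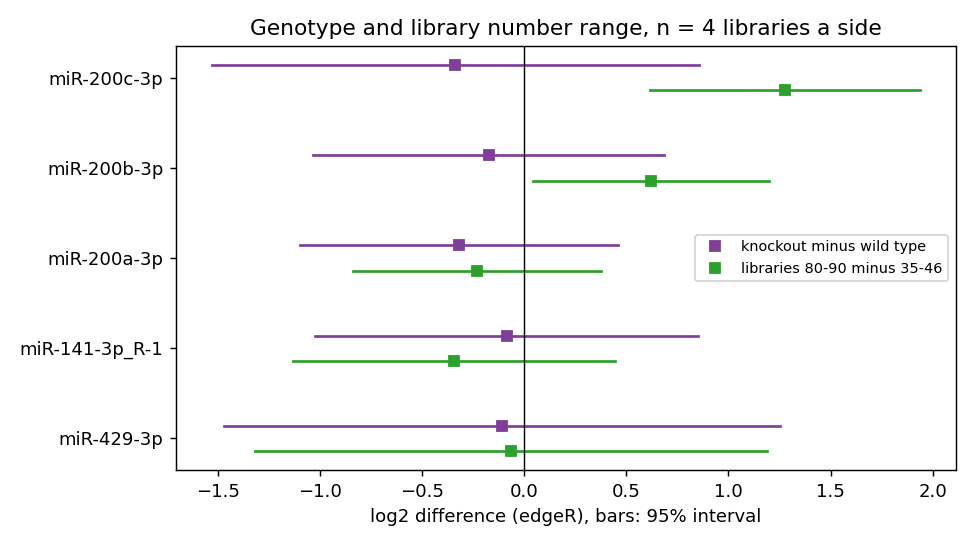
Log2 differences (squares) with 95% intervals (bars) from edgeR for the 5 family entries, knockout minus wild type and libraries 80 to 90 minus 35 to 46, n = 4 libraries a side. All genotype intervals span 0, and the number range intervals of miR-200c-3p (0.62 to 1.94) and miR-200b-3p (0.04 to 1.20) do not.

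For miR-200c, miR-200b and miR-141 the estimated difference was larger between number ranges than between genotypes, and for miR-200a and miR-429 it was smaller. The number range was examined because title numbers come in 2 ranges that were already known to separate these libraries, so it describes the libraries and not a planned comparison. The level of miR-200c was 136 ± 39.4 CPM in libraries 35 to 46 and 332 ± 103 CPM in libraries 80 to 90 (SD, n = 4 each), 2.44 times higher. With genotype in the fit the log2 difference was 1.28 ± 0.29 (SE; interval 0.62 to 1.94; edgeR adjusted p 0.0092), with 4 of 4 libraries above the other 4. The call held without each library in turn, with edgeR adjusted p from 0.00764 to 0.0427. For miR-200b the level was 61.2 ± 7.58 and 93.7 ± 18.6 CPM, and the log2 difference of 0.62 ± 0.26 (SE) did not pass in edgeR (adjusted p 0.0882). It did pass for miR-200b in DESeq2 (0.0280) and in limma-trend on the deposited values (0.0495), and in edgeR with library totals in place of TMM (0.0373).

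The other 3 members did not follow. Levels of miR-200a were 71.4 ± 13.8 CPM in libraries 35 to 46 and 61.2 ± 13.8 CPM in libraries 80 to 90, a log2 difference of -0.23 ± 0.27 (SE, edgeR adjusted p 0.545). Levels of miR-141 were 43.2 ± 5.69 and 34.0 ± 12.8 CPM, a log2 difference of -0.34 ± 0.35 (SE, edgeR adjusted p 0.491). For miR-200a and miR-141 the estimate was below 0 under every scaling tried. For miR-429 the log2 difference was -0.06 ± 0.56 (SE), and its sign changed with the scaling. A contrast this common is not particular to the family. Of all 627 entries 203 (32.4%) were called between the ranges, 104 (16.6%) higher and 99 (15.8%) lower in libraries 80 to 90, and 258 (41.1%) did not overlap, 21.4% higher and 19.8% lower. In that setting 1 of 5 members called higher and 2 of 5 not overlapping are near the background. By log2 difference miR-200c ranked 121 from the top of 627.

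The balance between members made from 1 cluster also differed between the number ranges. On chromosome 6 the ratio of miR-200c to miR-141 was 3.18, 3.55, 3.75 and 2.06 in libraries 35, 37, 40 and 46. It was 9.66, 12.6, 10 and 8.19 in libraries 80, 82, 88 and 90, so that the mean went from 3.13 ± 0.76 to 10.1 ± 1.82 (SD, n = 4 each). On chromosome 4 the ratio of miR-200b to miR-200a was 1.01, 0.758, 0.795 and 0.912 in the low range. It was 1.38, 1.41, 1.61 and 1.79 in the high range. For both pairs the ranges did not overlap, and in each pair it was the member with seed AAUACUG that gained. The third carrier of that seed, miR-429, did not: its ratio to miR-200a was 0.0868 to 0.146 in the low range and 0.110 to 0.142 in the high range. These ratios were chosen after the values were seen and are given without a test. They partly restate the levels of miR-200c and miR-200b, which themselves did not overlap between the ranges, as was so for 41.1% of all entries.

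Summed by seed, the ratio of the AAUACUG members to the AACACUG members was 1.44 to 2.01 in libraries 35 to 46 and 4.34 to 4.81 in libraries 80 to 90. Most of this sum is miR-200c, whose share of the family was 34.8% to 47.4% in the low range and 59.0% to 66.5% in the high range. Between genotypes none of these ratios separated. The ratio of miR-200c to miR-141 was 7.24 ± 4.64 in wild type and 5.998 ± 3.72 in knockout, and that of miR-200b to miR-200a was 1.14 ± 0.31 and 1.28 ± 0.50 (SD, n = 4 each).

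Compared as clusters, the chromosome 6 pair outweighed the chromosome 4 trio in 8 of 8 libraries. The wild-type and knockout libraries had chromosome 6 sums of 301 ± 162 and 244 ± 99.4 CPM, and the chromosome 4 sum was 164 ± 22.2 and 139 ± 30.8 CPM (SD, n = 4 each). The ratio of the chromosome 6 to the chromosome 4 sum was 1.78 ± 0.73 in wild type and 1.73 ± 0.58 in knockout. By number range it was 1.04 to 1.501 in libraries 35 to 46 and 1.86 to 2.75 in libraries 80 to 90, without overlap. The chromosome 4 sum overlapped between the ranges, at 140 ± 20.98 and 163 ± 32.9 CPM, and the chromosome 6 sum did not, at 179 ± 43.3 and 366 ± 115 CPM. Most of the chromosome 6 sum is miR-200c, at a mean of 136 and 332 CPM. Its partner miR-141 did not rise, at 43.2 and 34.0 CPM, so the cluster did not move as a unit. Of single entries, 41.1% did not overlap between the ranges.

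**Figure D3:**
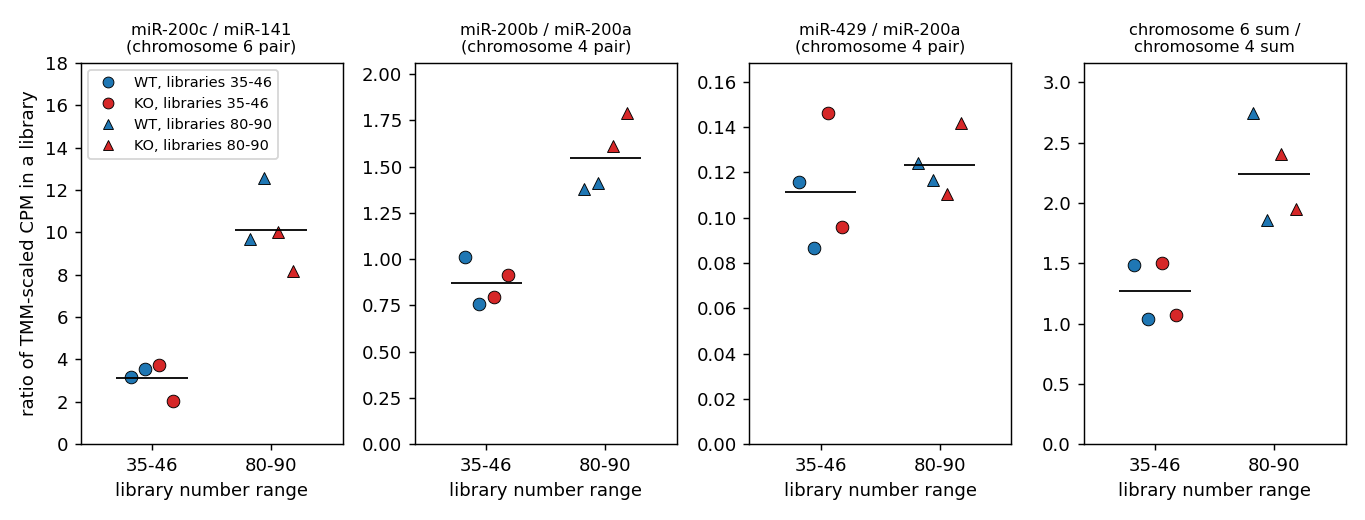
Ratios of TMM-scaled CPM within each library, by number range, with 1 point per library coloured by genotype and a line at the mean of 4. The ratio of miR-200c to miR-141 lies at 2.06 to 3.75 in libraries 35 to 46 and at 8.19 to 12.6 in libraries 80 to 90, whereas the ratio of miR-429 to miR-200a overlaps.

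Family members differ in length, and the number range contrast differed weakly by sequence length. Among 394 tested mouse-named entries the median log2 difference, libraries 80 to 90 minus 35 to 46, was -0.17 for 95 entries of 21 bases. It was 0.08 for 166 entries of 22 bases and 0.54 for 73 entries of 23 bases. On either side of these it was -0.16 for 14 entries of 20 bases and 0.46 for 24 entries of 24 bases, so it did not rise at every step. The Spearman correlation across these entries was 0.171 with length and -0.135 with GC content, as a description over entries that come from the same 8 libraries. In the family miR-141 (21 bases) had the lowest value, miR-200c (23 bases) the highest, and the 3 members of 22 bases lay between. The spread within a length was wide, with quartiles of -0.42 and 1.11 at 23 bases, and miR-200c at 1.28 lay above the upper one. The part of length in the result was not tested.

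**Figure D4:**
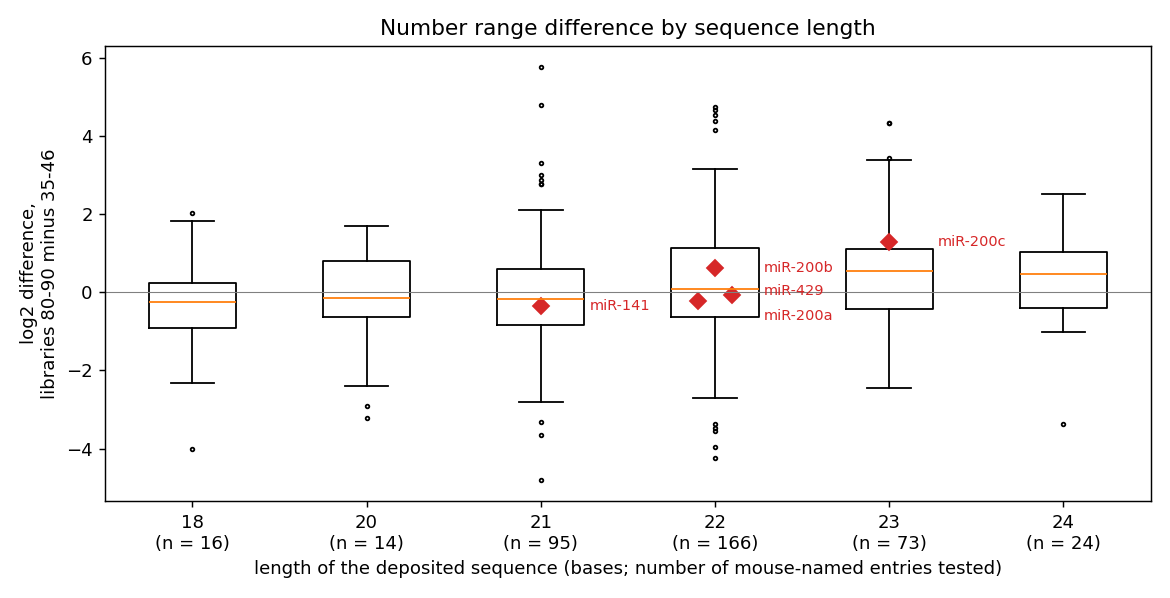
Log2 difference of libraries 80 to 90 minus 35 to 46 for tested mouse-named entries, by length of the deposited sequence (boxes: quartiles, line: median, whiskers: to 1.5 times the box height, dots: entries beyond). Diamonds mark the family, from miR-141 at -0.34 to miR-200c at 1.28, and lengths of 19, 25 and 26 bases with 3, 1 and 2 entries are not drawn.

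Of the other epithelial miRNAs that could be tested, none was called higher together with miR-200c. A list of 10 was used, chosen with earlier results of these data known, of which 8 had an entry and 6 were tested. Between the genotypes 0 of 6 were called in edgeR, with 5 lower and 1 higher and a median log2 difference of -0.70. Between the number ranges 0 of 6 were called higher and 2 lower in libraries 80 to 90, against 16.6% and 15.8% of all entries, and the median log2 difference was -1.91 against -0.04 for all entries. These counts and this median are over the entries that passed the filter on low counts. The 2 were arms of the miR-183, miR-96 and miR-182 cluster, which serves sensory and other epithelia. The level of miR-182-5p was 35.9, 43.9, 31.3 and 24.4 CPM in libraries 35, 37, 40 and 46. It was 8.24, 5.17, 1.61 and 1.11 CPM in libraries 80, 82, 88 and 90, a log2 difference of -3.38 ± 0.53 (SE, edgeR adjusted p 0.00145). For miR-96-5p the range was 3.61 to 8.55 CPM in the low range and 0.984 CPM or 0 in the high range (edgeR adjusted p 0.0166), and without knockout library 90 the adjusted p was 0.0565. It had at most 23 counts and could pass the filter only through the libraries in which it was high, so its call is no support for a difference.

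The remaining members of that list gave no call. The level of miR-203-3p, a skin and squamous epithelial miRNA, was 38.6 to 166 CPM in the low range and 54.2 to 71.1 CPM in the high range. The level of miR-205-5p was 14.9 to 92.4 and 4.96 to 19.3 CPM, and that of miR-31-5p, found in squamous and other epithelia, was 8.02 to 116 CPM and 0 to 20.5 CPM. The highest values of miR-31-5p and miR-203-3p were in wild-type library 37, and the highest miR-205-5p was in knockout library 40. In libraries 37 and 40 the miR-200 family sum was 335 and 359 CPM. The sum was 235 to 359 CPM over libraries 35 to 46, with library 40 the highest, and 405 to 726 CPM over libraries 80 to 90. The level of miR-183-5p was 0 to 6.92 CPM in the low range and 0 to 4.14 CPM in the high range. The untested entries had higher means in the high range: miR-375-3p, an islet and endocrine miRNA, averaged 2.42 and 6.19 CPM, and miR-34c-5p, of ciliated cells, averaged 1.68 and 11.95 CPM. The highest value of both was in wild-type library 82, at 14.7 and 37.2 CPM, and miR-34c-5p was listed at 0 in 4 libraries. The members miR-34b-5p and miR-449a-5p had no entry analysed here.

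Marker miRNAs of other cell types moved with the number range too. In bulk libraries fewer cells of a type and less RNA per cell cannot be told apart. The hepatocyte list had an entry for 7 of 7 members and summed to 12215 to 139350 CPM in libraries 35 to 46 and to 9132 to 14205 CPM in libraries 80 to 90, with overlap. It was highest in wild-type library 37, where miR-122-5p, the main liver miRNA, reached 115500 CPM. It fell by 2.44 on the log2 scale in libraries 80 to 90 (edgeR adjusted p 0.0243), but the call held in only 4 of the 8 fits that left out 1 library, and without library 37 the log2 difference was -1.17 (adjusted p 0.135). It was the 1 hepatocyte entry called of 6 tested, near the background of 15.8%. The other arm, miR-122-3p, did not fall, with a log2 difference of 0.19 ± 0.85 (SE, edgeR adjusted p 0.901). Of the 6 tested entries it was the 1 above 0, and 5 were below. Without library 37 the miR-200c log2 difference between ranges was 1.28, as with it, and the edgeR adjusted p was 0.0427. The erythroid list (3 of 3 members) summed to 5020 to 7355 CPM in the low range. In the high range it summed to 618 to 2388 CPM. Of its 3 entries 2 were called lower, against 15.8% of all entries. Its main member miR-451a fell by 3.32 on the log2 scale (edgeR adjusted p 0.000668). The log2 difference of miR-144-3p was -0.61 (edgeR adjusted p 0.452), with its highest level, 549 CPM, in knockout library 88. The stellate or mesenchymal list (4 of 5 members) summed to 5369 to 8045 CPM and 3079 to 3587 CPM, most of it miR-143-3p. Its members moved in both directions, with 1 of 4 called higher and 2 lower, against 16.6% and 15.8% of all entries. The log2 difference was -1.05 for miR-143-3p (edgeR adjusted p 0.00294) and 2.10 for miR-214-3p (edgeR adjusted p 0.00503). The other lower call, miR-145a-5p (adjusted p 0.0452), held in 1 of 8 fits that left out 1 library.

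The erythroid and the stellate or mesenchymal sums did not overlap between the ranges, whereas the myeloid and endothelial sums did. The myeloid sum was 112860 to 135390 CPM in the low range and 90953 to 168160 CPM in the high range. Of the 6 myeloid entries 3 were called higher and 1 lower, against 16.6% and 15.8% of all entries. The entries miR-342-3p and miR-223-3p were higher in libraries 80 to 90, with log2 differences of 1.47 ± 0.25 and 1.01 ± 0.22 (SE; edgeR adjusted p 0.00216 and 0.00636). The arm miR-142a-5p was higher too, at 0.79 ± 0.18 (SE, edgeR adjusted p 0.00945), a call that held in 7 of 8 fits that left out 1 library and was lost without library 37 (adjusted p 0.0545). The lower call was miR-511-3p at -0.63 ± 0.21 (SE, edgeR adjusted p 0.0418), which held in 1 of 8 such fits, and miR-142a-3p did not pass (-0.64 ± 0.24, SE, edgeR adjusted p 0.0637). The endothelial sum was 22744 to 33496 CPM and 18065 to 28517 CPM. Every marker list had counts in every library, and the part of these cell types in the miR-200 levels was not tested.

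**Figure D5:**
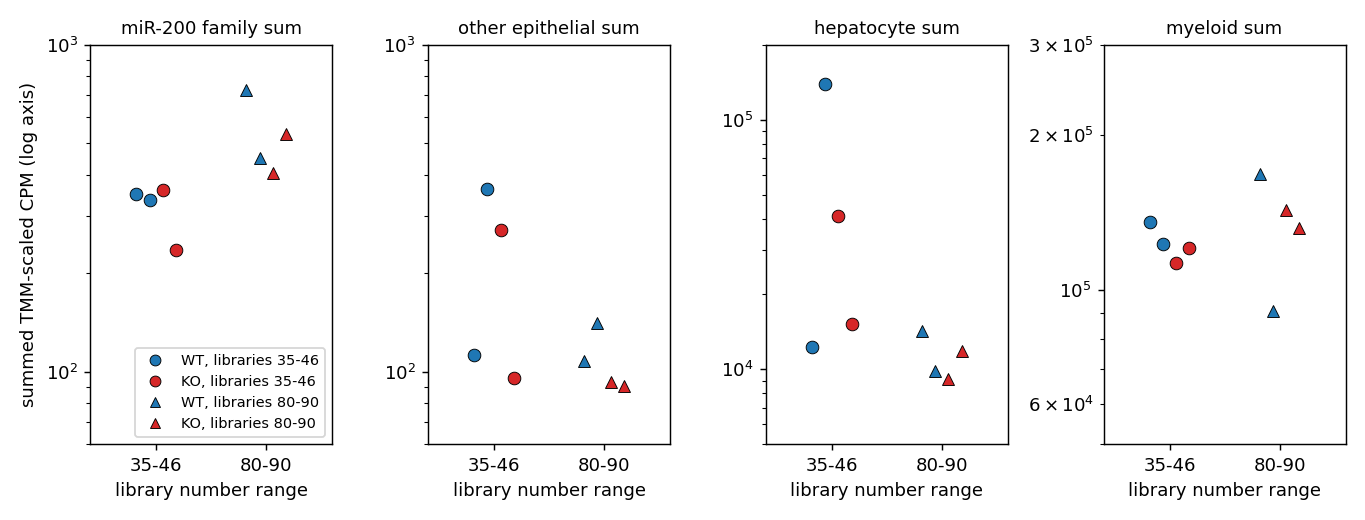
Summed TMM-scaled CPM (log axes, which differ between panels) of the miR-200 family, other epithelial, hepatocyte and myeloid lists in each library, by number range and coloured by genotype. The family sum is 235 to 359 CPM in libraries 35 to 46 and 405 to 726 CPM in libraries 80 to 90, while the other epithelial sum is 95.7 to 362 CPM and 90.6 to 140.8 CPM.

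Within a number range the members correlated with each other across libraries, and some entries outside the family followed the family sum as closely. After the mean of each range was subtracted, the Pearson correlation of log2 levels between 2 members over the 8 libraries was from 0.41 (miR-200a and miR-141) to 0.83 (miR-200c and miR-429). With the family sum, of which they are part, the members correlated at 0.77 (miR-141) to 0.96 (miR-200c). Among 269 mouse-named entries outside the family with a mean of at least 20 CPM and counts in every library, the 5 most like the family sum by this measure were miR-17-5p (0.95), miR-181b-5p (0.93), miR-30a-5p (0.93), miR-142a-3p (0.93) and miR-30c-5p (0.93). These are descriptions of 8 libraries that have their scaling in common. The 5 did not share the number range contrast: miR-30c-5p had a log2 difference of 1.56 ± 0.27 between ranges (SE, edgeR adjusted p 0.00242), and miR-30a-5p one of -0.54 ± 0.24 (SE, edgeR adjusted p 0.111).

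Finally, 2 entries of the table carry family names of other species and were not members. The entry named hsa-miR-141-3p_R+2 begins with the whole mouse miR-141-3p and adds 2 bases, of which 1 does not match the mouse hairpin. The entry named oan-miR-429-3p_R+2 begins with the whole mouse miR-429-3p and adds 2 bases that do not match the mouse hairpin. The first held 14 counts in 2 libraries and the second 15 counts in 3 libraries, or 1.08% and 5.56% of the counts of the mouse entries.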

How the data were processed

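Small RNA was sequenced from sorted Kupffer cells in 4 wild-type and 4 Trem2 knockout libraries, with the Illumina TruSeq small RNA kit per the labels' protocols. The sources used here do not name the trimming, aligner, miRNA database or genome build. Raw values in the deposited table were read here to be expected counts because 12.0% were not whole within 1e-06, and no source used here says how reads were split between entries. Each normalized value in the deposited table is a signal, equal to the raw value times 1 factor per library. The deposited column of words up and down (the authors' direction) was read as given. No per-sample column was left unused, and 2 emptied lines were not analysed here.

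Expected counts were rounded, filtered with filterByExpr (627 of 1234 entries left), scaled with TMM factors and tested with the edgeR 4.0.16 quasi-likelihood test in R 4.3.3, with Benjamini-Hochberg adjustment at 0.05 over all entries. Genotype was the only term, and the number range of the libraries was tested with genotype in the fit. Alternatives were other filters, other scalings, merged entries, each library left out, single number ranges, DESeq2 1.42.0 and limma 3.58.1 (limma-trend on log2 of the deposited value plus 1). Standard errors came from the quasi-likelihood F statistic. The fits were tested on simulated data. Named miRNAs were all family entries, the other epithelial list, leading members of marker lists and the 5 entries most like the family sum. The myeloid miR-223-3p and miR-511-3p, miR-214-3p, miR-122-3p and the ratios of single members were chosen after their values were seen. Members and lists were chosen with earlier results of these data known. Sequences were matched to RefSeq for 5 of 5 members.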

Additional observations from a re-analysis of the deposited data

Results flagged for a closer look

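In 60 groups of 4 libraries examined on the log2 scale, by genotype and by number range, 2 held a library far from the others, against 3 expected by chance at 1 in 20. Knockout library 46 had a family sum of 235 CPM, far below the 335 to 359 CPM of the other libraries numbered 35 to 46. Wild-type library 82 had a ratio of miR-141 to miR-200a of 0.347, far below the 0.596 to 0.645 of the other libraries numbered 80 to 90. Outside the comparisons, the entry hsa-miR-141-3p_R+2 reached 8 counts in wild-type library 35 and oan-miR-429-3p_R+2 reached 5 counts in wild-type libraries 80 and 82 and knockout library 40, above the 3 counts that a count of 0 allows.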

How the results depend on the processing

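The miR-200c call between number ranges held under every alternative tried, with log2 differences of 1.08 to 1.61, and no member was called between genotypes under any. Between genotypes, leaving out 1 library gave log2 differences of -0.62 to 0.13 for miR-200c, -0.30 to 0.062 for miR-141 and -0.34 to 0.06 for miR-429. In libraries 35 to 46 alone miR-141 was 0.02 and miR-429 was 0.15, and miR-141 was 0.005 in limma-trend. Between ranges miR-429 was 0.049 with no filter, 0.029 with DESeq2 size factors, 0.031 in DESeq2, 0.016 in limma-trend and 0.087 with library totals, and -0.21 to 0.28 leaving out 1 library. Entries called between ranges numbered 129 (without wild-type library 37) to 222 leaving out 1 library, against 203. The log2 ratio of chromosome 6 to chromosome 4, knockout minus wild type, was -0.25 to 0.22 leaving out 1 library, against -0.02. Between ranges that ratio was 1.10, against 0.82, without the suffixed miR-141 entry, which left miR-200c alone for chromosome 6. The cause of the other changes was not tested. With library totals in place of TMM the median log2 difference of all entries between ranges was 0.15 in place of -0.04. No paired analysis was possible because the labels name no litter or pair of libraries. Depth limits miR-429 most, at 12 counts in knockout library 46.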
